A study of Mus musculus with 35 samples.

Results

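The basal layer of the tongue epithelium was compared with that of the palate epithelium in 8 of the 35 RNA libraries of the series, 4 from tongue and 4 from palate. They are all the basal layer libraries of these tissues. Each tissue gave 2 libraries of label-retaining cells (LRC, labelled slow-cycling) and 2 of cells that had lost the label (nLRC). All 8 came from C57BL/6J mice aged 2 months with the genotype K5-tTA/pTRE H2B-GFP, fed doxycycline chow for 10 days. In these mice the keratin 5 promoter drives a transactivator that switches on a histone-GFP fusion, and doxycycline stops its synthesis, so that GFP is diluted at each division. A cell in which the transgene was never active cannot be told from one that diluted its label. The labels do not say whether libraries came from separate animals, or whether LRC and nLRC of one number share animals. Each p-value thus rests on the variation among libraries alone, part of which may be technical. If LRC and nLRC of one number share animals, each tissue has 2 independent units rather than 4.

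Tongue and palate are covered by stratified squamous epithelia that renew from a basal layer. The dorsal tongue carries filiform papillae, whose cells make hard keratins otherwise known from hair and nail, and the hard palate carries transverse ridges, the rugae. Homeobox, T-box and paired-box transcription factors pattern the oral cavity in the embryo, and adult epithelia keep part of that regional expression. Levels are given as CPM, read counts relative to library size, after TMM scaling, a normalisation to the bulk of genes. The values of a tissue stand in the order LRC 1, LRC 2, nLRC 1 and nLRC 2. LRC was not tested against nLRC within a tissue, so orderings of these libraries only describe the genes named.

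Reads assigned to genes numbered 11847897 to 13034075 in the tongue libraries and 11680595 to 15641556 in the palate libraries. Basal cell markers were high in all 8. Krt5, the type II keratin of basal cells, stood at 3987 to 6584 CPM in tongue and 5296 to 9529 CPM in palate, and Trp63, the master regulator of stratified epithelia, at 604 to 734 CPM in tongue and 570.3 to 753 CPM in palate. Palate nLRC 2 stood apart, with a median intron share of 5.29% per gene against 18.4 to 27.0% in the other 7 libraries, and a TMM factor of 0.666 against 0.996 to 1.16. The intron share was 27.0, 19.5, 26.4 and 27.0% in tongue, against 22.2, 18.4, 20.5 and 5.29% in palate. All tongue libraries but LRC 2 thus lay above every palate library. The tested counts hold intron reads, and the part of this difference in the calls was not tested. Palate LRC 1 alone was rich in the gland mucin Muc5b, with 233 CPM against 0.144 to 1.23 CPM in the tongue libraries. It was the highest of all 8 for the respiratory markers Muc5ac (137 CPM) and Reg3g (32.3 CPM), which had no read in tongue. Palate nLRC 1 came next for Muc5b, Muc5ac and Reg3g, at 2.55, 13.2 and 1.6 CPM. The Y-linked gene Ddx3y stood at 32.9 and 34.2 CPM in tongue LRC 1 and nLRC 1, 0.0827 and 0.216 CPM in tongue LRC 2 and nLRC 2, 33.7 and 23.9 CPM in palate LRC 1 and nLRC 1, and 7.61 and 7.21 CPM in palate LRC 2 and nLRC 2. The Y-linked Uty went the same way in tongue, with 48.0 and 44.0 CPM in LRC 1 and nLRC 1. It had 0 and 0.144 CPM in tongue LRC 2 and nLRC 2. Tongue libraries of number 1 thus held male RNA and those of number 2 almost none, so their animals were not the same. LRC and nLRC libraries of one number and tissue were alike in Ddx3y. With each such pair summed, 1122 genes passed between tissues, of which 993 also passed with the 8 libraries kept apart. None of 5 sex-linked genes passed the test between tissues.

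Tongue differed from palate in 1352 of 14923 tested genes, or 9.06% (edgeR's quasi-likelihood test with label class as a factor, Benjamini-Hochberg adjusted p under 0.05). Of these, 701 were higher in tongue (4.70%) and 651 were lower (4.36%). The median log2 fold change of tongue over palate was -0.03 over all tested genes. The tongue and palate values did not overlap in 1276 of the 1352 genes, and in 2761 of all tested genes (18.5%), with 1496 higher (10.0%) and 1265 lower in tongue (8.48%). A log2 fold change of at least 3 in either direction was found for 63 genes higher in tongue and 170 genes lower in tongue. With 1 library left out, 720 to 1772 genes passed, and the count moved by over 1.5 times without tongue LRC 1 (732), tongue nLRC 1 (746), tongue nLRC 2 (720) or palate LRC 2 (788). On exon TPM with limma, 559 genes passed, of which 66.0% were higher in tongue, against 51.8% in the test on counts, and the median over all genes moved to 0.15.

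**Figure D1:**
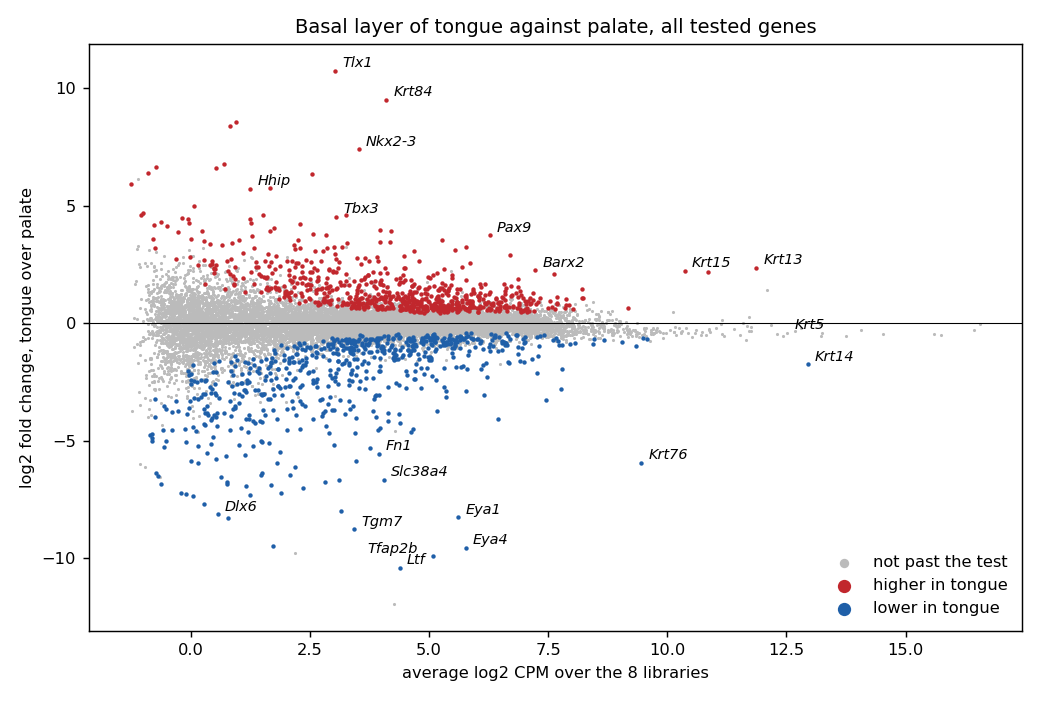
Each point is 1 of the 14923 tested genes, with the average log2 CPM of the 8 libraries on the x axis and the log2 fold change of tongue over palate on the y axis. The 701 genes higher in tongue are red and the 651 lower in tongue are blue, and Tlx1 and Krt84 stand at the top. Fitted values of genes with no or few reads in one tissue, such as Tlx1 and Tfap2b, depend on the prior count.

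The 15 largest rises in tongue included the transcription factors Tlx1, Nkx2-3, Tbx3, Pax9 and Foxp2, beside keratins, enzymes and receptors. Tlx1, a homeobox factor needed for spleen development, had 18.2, 16.8, 15.4 and 13.8 CPM in tongue and no read in palate. Every tongue library held it, and the level in tongue was at least 65.7-fold higher, with 3 reads per library as the floor (adjusted p = 7.96e-05). Nkx2-3, a homeobox factor of gut and pharynx, had 18.5, 26.8, 20.2 and 24.7 CPM in tongue, against 0.427, 0, 0 and 0 CPM in palate (log2 fold change 7.39 ± 0.59, adjusted p = 0.000129). One palate library held it, below every tongue library. Both genes lie on chromosome 19 (mm10), Nkx2-3 at 43612325 to 43615892 and Tlx1 at 45150680 to 45156943, and Cpn1 lies between them at 43956307 to 43986556. Cpn1, the catalytic subunit of carboxypeptidase N, had 18.2, 21.2, 15.9 and 17.02 CPM in tongue, against 0.183, 0.845, 1.07 and 1.03 CPM in palate (log2 fold change 4.58 ± 0.38, adjusted p = 0.000156).

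Tbx3, a T-box repressor, had 10.04, 15.2, 19.5 and 17.1 CPM in tongue, against 0.427, 1.38, 0.356 and 0.515 CPM in palate (log2 fold change 4.51 ± 0.42, adjusted p = 0.000272). Its closest paralog Tbx2, named after its values were seen, had 20.2, 18.8, 26.3 and 21.1 CPM in tongue, against 2.01, 3.77, 2.61 and 4.51 CPM in palate (log2 fold change 2.77 ± 0.24, adjusted p = 0.000212). Neither gene overlapped between tissues. Pax9, a paired-box factor needed for teeth, palate and filiform papillae in the mouse, had 125, 121, 166 and 164 CPM in tongue, against 14.6, 10.4, 14.3 and 2.96 CPM in palate (log2 fold change 3.73 ± 0.40, adjusted p = 0.000533). The tongue libraries all lay above the palate libraries, of which nLRC 2 was lowest. Slc25a21, a mitochondrial carrier, overlaps the end of Pax9 on the opposite strand of chromosome 12 and was also higher in tongue (log2 fold change 3.93 ± 0.73, adjusted p = 0.00992). Its mean in tongue was 34.4 CPM but only 1.18 ± 0.27 in exon TPM (SD, n = 4), and it was too low for limma on TPM with the filter. Whether counting used the strand is not stated, and reads in the short stretch that both genes share cannot be told apart. Foxp2, a forkhead factor, had 102, 40.8, 83.1 and 55.3 CPM in tongue, against 10.1, 9.68, 3.2 and 3.35 CPM in palate (log2 fold change 3.56 ± 0.40, adjusted p = 0.000619).

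**Figure D2:**
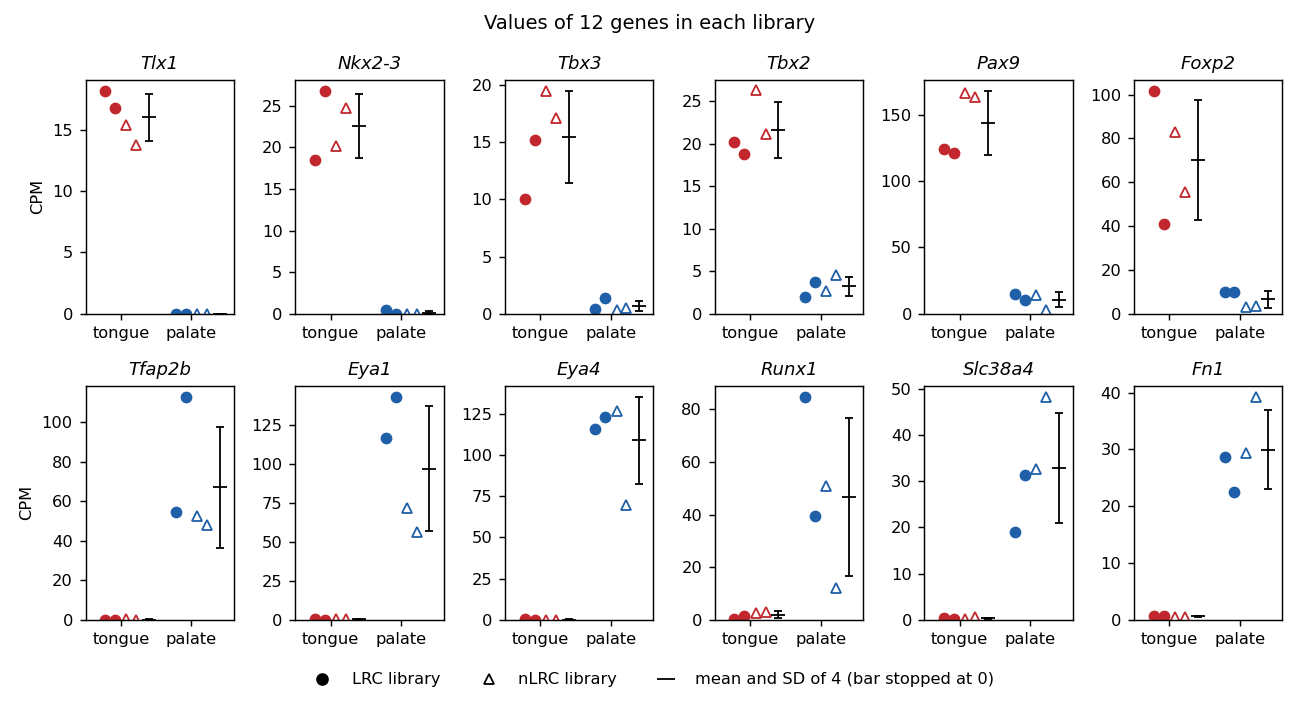
CPM of 12 genes in each library, each panel with its own y axis from 0, tongue in red left of palate in blue. Filled circles are LRC and open triangles nLRC libraries, and the mark with whiskers is the mean ± SD of 4. Every tongue library lies above every palate library for Tlx1, Nkx2-3, Tbx3, Tbx2, Pax9 and Foxp2, and below every one for Tfap2b, Eya1, Eya4, Runx1, Slc38a4 and Fn1. Apart from Tbx2, which was named after its values were seen, these genes were ranked only because they did not overlap.

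Of 38 tested patterning factors, among 56 listed, 7 were higher in tongue and 12 lower, with a median log2 fold change of -0.19. Over all tested genes, 4.70% were higher and 4.36% lower, and no list count here or below was tested against these shares. With 1 library left out, 6 to 7 were higher and 10 to 13 lower. Beside Nkx2-3, Tbx3 and Pax9, the higher ones were Barx2, Osr2, Foxa1 and Otx1. Barx2, a homeobox factor of stratified epithelia, had 226, 239, 268 and 258 CPM in tongue, against 73.2, 34.3, 83.5 and 16.6 CPM in palate (log2 fold change 2.24 ± 0.43, adjusted p = 0.0111). Osr2, which is needed for palate growth in the mouse embryo, had 14.8, 18.2, 5.61 and 9.02 CPM in tongue, against 6.59, 2.61, 1.13 and 0.644 CPM in palate (log2 fold change 2.29 ± 0.37, adjusted p = 0.00473). Barx2 did not overlap between tissues, and Osr2 did, since tongue nLRC 1 lay below palate LRC 1. Foxa1, a pioneer factor of endodermal epithelia, had 17.6, 21.1, 23.3 and 26.8 CPM in tongue, against 9.46, 5.3, 1.72 and 0.644 CPM in palate (log2 fold change 2.62 ± 0.55, adjusted p = 0.017), and lost its call without palate nLRC 1 (adjusted p up to 0.0599). Otx1 rose by 0.73 ± 0.17 on the log2 scale and lost its call without tongue LRC 2, tongue nLRC 1, tongue nLRC 2, palate LRC 1 or palate LRC 2 (adjusted p up to 0.0963).

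Lower in tongue were an AP-2 factor and the Eya family members Eya4 and Eya1, which act in the development of sense organs and muscle. Tfap2b, an AP-2 factor of face and limbs, had 0, 0, 0.251 and 0 CPM in tongue, against 54.6, 113, 52.5 and 48.1 CPM in palate. Its 3 reads in tongue all came from nLRC 1, and the ratio of palate over tongue was 1155 (95% counting interval 395 to 5604) (adjusted p = 2.78e-05). The related Tfap2a and Tfap2c did not pass the test. Eya4, a transcriptional co-activator with phosphatase activity, had 0.217, 0, 0.167 and 0.144 CPM in tongue, against 116, 123, 126 and 69.8 CPM in palate (log2 fold change -9.55 ± 0.39, adjusted p = 7.49e-06). Eya1, of the same family, had 0.217, 0, 0.419 and 0.505 CPM in tongue, against 117, 143, 71.5 and 56.5 CPM in palate (log2 fold change -8.27 ± 0.46, adjusted p = 2.78e-05). All tongue libraries were below 1 CPM for both. Eya2 did not pass, with 8.24, 8.11, 46.2 and 53.9 CPM in tongue, against 63.8, 31.2, 35.98 and 14.3 CPM in palate (log2 fold change -0.73 ± 0.72, adjusted p = 0.581), and its groups overlapped. Eya3 rose by 0.60 ± 0.14 (adjusted p = 0.0239), and lost its call without tongue LRC 1, tongue LRC 2, tongue nLRC 1, tongue nLRC 2, palate LRC 1 or palate LRC 2 (adjusted p up to 0.0986).

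The homeobox gene Six2 had 0.0723, 0, 0.0837 and 0.216 CPM in tongue, against 5.74, 1.08, 1.13 and 0.644 CPM in palate (log2 fold change -4.13 ± 0.97, adjusted p = 0.0275), and lost its call without tongue LRC 1, tongue LRC 2, tongue nLRC 1, palate LRC 1 or palate nLRC 1 (adjusted p up to 0.129). It was highest in palate LRC 1, the library rich in Muc5b, Muc5ac and Reg3g, and the part of gland or respiratory RNA in this value was not tested.

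Of the Dlx, Msx and Irx homeobox genes, Dlx1, Dlx5, Dlx6, Msx2, Irx1, Irx2 and Irx3 were lower in tongue, and Dlx2, Dlx3, Dlx4, Irx4 and Irx5 did not pass. Dlx6 had no read in tongue and 2.62, 3.53, 2.07 and 2.45 CPM in palate, at least 11.5-fold lower in tongue (adjusted p = 0.00218). Its neighbour Dlx5 on chromosome 6 had 4.19, 6.78, 5.61 and 5.27 CPM in tongue, against 16.8, 20.4, 16.4 and 20.3 CPM in palate (log2 fold change -1.76 ± 0.19, adjusted p = 0.000573). Dlx5 was read in every tongue library, without overlap with palate. Dlx1 fell by 3.60 ± 0.52 (adjusted p = 0.00254) on the log2 scale, and Msx2, which marks sites of ectodermal appendages, fell by 2.02 ± 0.33 (adjusted p = 0.00465). Irx3 had 0.0723, 0.248, 0.167 and 0.289 CPM in tongue, against 3.17, 2.77, 3.32 and 3.09 CPM in palate (log2 fold change -3.94 ± 0.48, adjusted p = 0.00104). Irx1 and Irx2, neighbours on chromosome 13, fell by 5.004 ± 0.88 (adjusted p = 0.0072) and 4.08 ± 0.80 (adjusted p = 0.0123), and Irx2 lost its call without palate nLRC 1 (adjusted p up to 0.0771).

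The other 19 tested patterning factors did not pass, with log2 fold changes of -1.63 to 1.75. Among them were the oral factors Pitx1, with 139 ± 13.4 CPM in tongue and 139 ± 41.7 CPM in palate (SD, n = 4 each), and Sox2, with 45.4 ± 7.32 CPM in tongue and 43.7 ± 6.34 CPM in palate. Their log2 fold changes were 0.03 ± 0.19 and 0.05 ± 0.16 (adjusted p = 0.939 and 0.877). Of 38 Hox genes, 1 had enough reads to be tested and 19 had no read in any of the 8 libraries. Hoxc13, which drives hair and nail keratins, had 3.11, 4.05, 2.43 and 2.16 CPM in tongue and a single read in palate, in LRC 2, a tongue over palate ratio of 158 (95% counting interval 27.9 to 6271) (adjusted p = 0.000533).

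**Figure D3:**
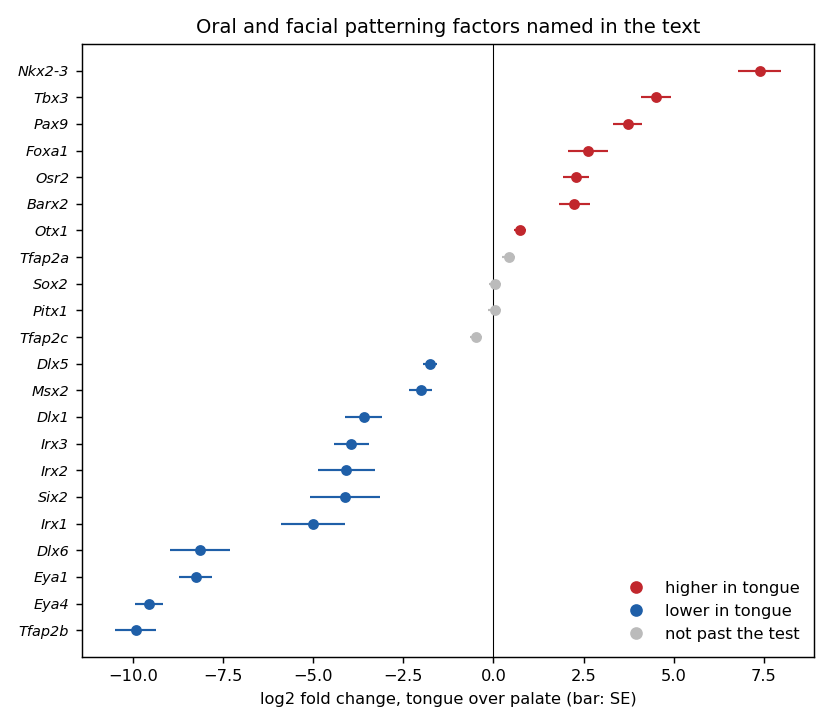
Log2 fold change of tongue over palate with its SE for 22 of the 38 tested patterning factors, those named in the text, in order of size. Shown are 7 factors higher in tongue in red, 11 lower in tongue in blue and 4 that did not pass in grey. The values of Dlx6, Tfap2b and Nkx2-3 rest on no or few reads in one tissue and are no bounds.

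Of 29 tested epithelial lineage factors, 5 were higher in tongue and 3 lower (median 0.02), and 2 to 5 and 3 to 4 with 1 library left out. Klf5, a factor of proliferating epithelia, had 393, 458, 319 and 420.3 CPM in tongue, against 221, 205, 214 and 128 CPM in palate (log2 fold change 1.05 ± 0.20, adjusted p = 0.00966). Grhl3, a grainyhead factor needed for the skin barrier, rose by 1.26 ± 0.24 (adjusted p = 0.0104). Klf5 and Grhl3 kept their calls with each library left out, though not by limma on TPM without a filter, whereas Grhl1 lost its call without tongue LRC 2, tongue nLRC 2 or palate LRC 2 (adjusted p up to 0.0744), Elf5 without tongue LRC 1, tongue LRC 2, tongue nLRC 1, tongue nLRC 2, palate LRC 2 or palate nLRC 1 (adjusted p up to 0.105) and Tcf7l1 without tongue LRC 1, tongue nLRC 1, tongue nLRC 2, palate LRC 1 or palate LRC 2 (adjusted p up to 0.15). Runx1, a factor of hair follicle and oral epithelial stem cells, had 0.145, 1.57, 2.76 and 3.1 CPM in tongue, against 84.7, 39.3, 50.8 and 12.1 CPM in palate (log2 fold change -4.62 ± 0.74, adjusted p = 0.00446). Sox9, another follicle stem cell factor, had 0.795, 1.57, 4.94 and 6.28 CPM in tongue, against 18.6, 19.4, 22.3 and 17.1 CPM in palate (log2 fold change -2.77 ± 0.42, adjusted p = 0.00353). In tongue both genes were lower in both LRC libraries than in both nLRC libraries, which was not tested. Neither gene overlapped with palate. Maf, a factor of differentiating keratinocytes, fell by 1.14 ± 0.15 (adjusted p = 0.00174).

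Keratins differed in both directions. Keratin filaments pair a type I with a type II chain, whose genes lie in clusters on chromosomes 11 and 15. Of 14 tested genes of the chromosome 15 cluster, 4 were higher in tongue and 4 lower, and of 15 on chromosome 11, 5 were higher and 5 lower. Krt84, a type II hair keratin, had 36.9, 75.4, 12.3 and 11.1 CPM in tongue, against 0, 0, 0.119 and 0 CPM in palate. The 2 palate reads gave a tongue over palate ratio of 899 (95% counting interval 249 to 7432) (adjusted p = 7.96e-05). Krt90, the next gene but one, had 0, 0.165, 0.0837 and 0 CPM in tongue, against 22.6, 4, 19.98 and 23.4 CPM in palate. Its 3 tongue reads gave a palate over tongue ratio of 300.3 (95% counting interval 102 to 1459) (adjusted p = 0.00042). Krt84 lies at 101525026 to 101532820 and Krt90 at 101552356 to 101562950 on chromosome 15 (mm10), with Krt82, too low to test, between them. Krt75, a keratin of the hair companion layer and the neighbour of Krt90, fell by 5.04 ± 0.61 (adjusted p = 0.000952).

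Krt76, a type II keratin of suprabasal palate, had 31.001, 72.6, 4.61 and 12.8 CPM in tongue, against 723, 1639, 850.4 and 2253 CPM in palate (log2 fold change -5.95 ± 0.82, adjusted p = 0.00201). Every palate library lay above every tongue library. The 250 bases before the start of Krt84, Krt90 and Krt76 are printed because these genes of 1 cluster had the largest differences in it. They are from RefSeq (GRCm38.p6), 5′ to 3′ on the strand of the genes, which is minus for all 3, at chr15:101532821-101533070, chr15:101562951-101563200 and chr15:101892921-101893170.
Krt84: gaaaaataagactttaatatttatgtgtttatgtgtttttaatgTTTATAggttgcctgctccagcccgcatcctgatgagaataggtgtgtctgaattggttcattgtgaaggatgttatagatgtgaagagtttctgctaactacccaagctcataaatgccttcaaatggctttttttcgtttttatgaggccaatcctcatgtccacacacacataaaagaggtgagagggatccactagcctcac
Krt90: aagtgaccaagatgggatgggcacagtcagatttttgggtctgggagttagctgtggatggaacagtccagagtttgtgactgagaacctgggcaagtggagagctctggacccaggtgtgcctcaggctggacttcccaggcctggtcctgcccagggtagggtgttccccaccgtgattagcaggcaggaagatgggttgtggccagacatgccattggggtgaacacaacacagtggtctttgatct
Krt76: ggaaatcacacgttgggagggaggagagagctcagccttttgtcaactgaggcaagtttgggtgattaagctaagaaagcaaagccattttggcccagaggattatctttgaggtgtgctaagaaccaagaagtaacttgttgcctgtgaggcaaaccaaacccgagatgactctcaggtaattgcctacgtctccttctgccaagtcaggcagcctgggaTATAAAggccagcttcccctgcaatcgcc
Capitals mark TATAAA, the core of a TATA box, and its reverse complement TTTATA, both searched over the 250 bases. Krt76 held the letters once on its own strand, starting 29 bases before the gene start, Krt84 once on the other strand, and the window of Krt90 did not hold them. Of 27025 promoters of this length, 8.12% held the letters on the strand of the gene and 13.0% on either strand, and of 10552 promoters of tested genes, 3.79% and 6.27%.

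Among hard keratin and filiform papilla genes, 6 of 10 tested were higher in tongue and 1 lower (median 2.06), with the same counts when any 1 library was left out. The higher ones were Krt84, Krt36, Krt35, Krt32, Hoxc13 and Lef1, and the lower one was Msx2. Krt36, a type I hair keratin, had 10.3, 26.5, 3.6 and 4.76 CPM in tongue, against 0, 0.384, 0.119 and 0 CPM in palate (log2 fold change 6.33 ± 0.68, adjusted p = 0.000526). Its neighbours Krt35 and Krt32 rose by 5.73 ± 0.89 (adjusted p = 0.00392) and 2.20 ± 0.29 (adjusted p = 0.00158). For Krt84, Krt36, Krt35 and Krt32, both tongue LRC libraries lay above both tongue nLRC libraries, an ordering that was not tested.

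Of 19 tested keratins of stratified epithelia, 5 were higher and 7 lower (median -0.93), and 4 to 5 and 7 to 8 with 1 library left out. Krt13, the type I keratin of suprabasal mucosa, had 5279.8, 8795, 5172 and 5609 CPM in tongue, against 1909, 949, 1551 and 473 CPM in palate (log2 fold change 2.36 ± 0.41, adjusted p = 0.00686). Krt4, its type II partner, had 1571, 3641, 3198 and 3617 CPM in tongue, against 1193, 345, 991 and 173 CPM in palate (log2 fold change 2.15 ± 0.58, adjusted p = 0.0494), and lost its call without tongue LRC 1, tongue LRC 2, tongue nLRC 1, tongue nLRC 2, palate LRC 2 or palate nLRC 1 (adjusted p up to 0.125). Both did not overlap between tissues. Krt15, a keratin of basal cells with stem cell features, had 2474, 3049.5, 1711 and 1483 CPM in tongue, against 685, 430.5, 364 and 356 CPM in palate (log2 fold change 2.23 ± 0.22, adjusted p = 0.000343). Krt78 and Krt80, of upper layers, rose by 3.78 ± 0.68 (adjusted p = 0.00821) and 2.15 ± 0.19 (adjusted p = 0.000199).

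Krt14, the type I partner of Krt5, had 3312, 4068, 3649 and 3269 CPM in tongue, against 9213, 10468, 9577 and 19761 CPM in palate (log2 fold change -1.75 ± 0.32, adjusted p = 0.00904). Every tongue library lay below every palate library, of which nLRC 2 was highest. Krt5 itself did not pass (log2 fold change -0.40 ± 0.30, adjusted p = 0.459). The stress keratins Krt16 and Krt17 fell by 3.27 ± 0.47 (adjusted p = 0.00254) and 2.15 ± 0.27 (adjusted p = 0.00122), and Krt24 by 1.95 ± 0.31 (adjusted p = 0.00444), while Krt6a did not pass (log2 fold change -0.53 ± 0.34, adjusted p = 0.382). Krt14, Krt16, Krt17 and the neighbouring Krt42, which was also lower, have similar sequences, and reads may be shared among them. Krt1 and Krt10, the pair of epidermal upper layers, did not pass (log2 fold change -1.96 ± 0.86, adjusted p = 0.201 and log2 fold change -0.93 ± 0.41, adjusted p = 0.209).

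**Figure D4:**
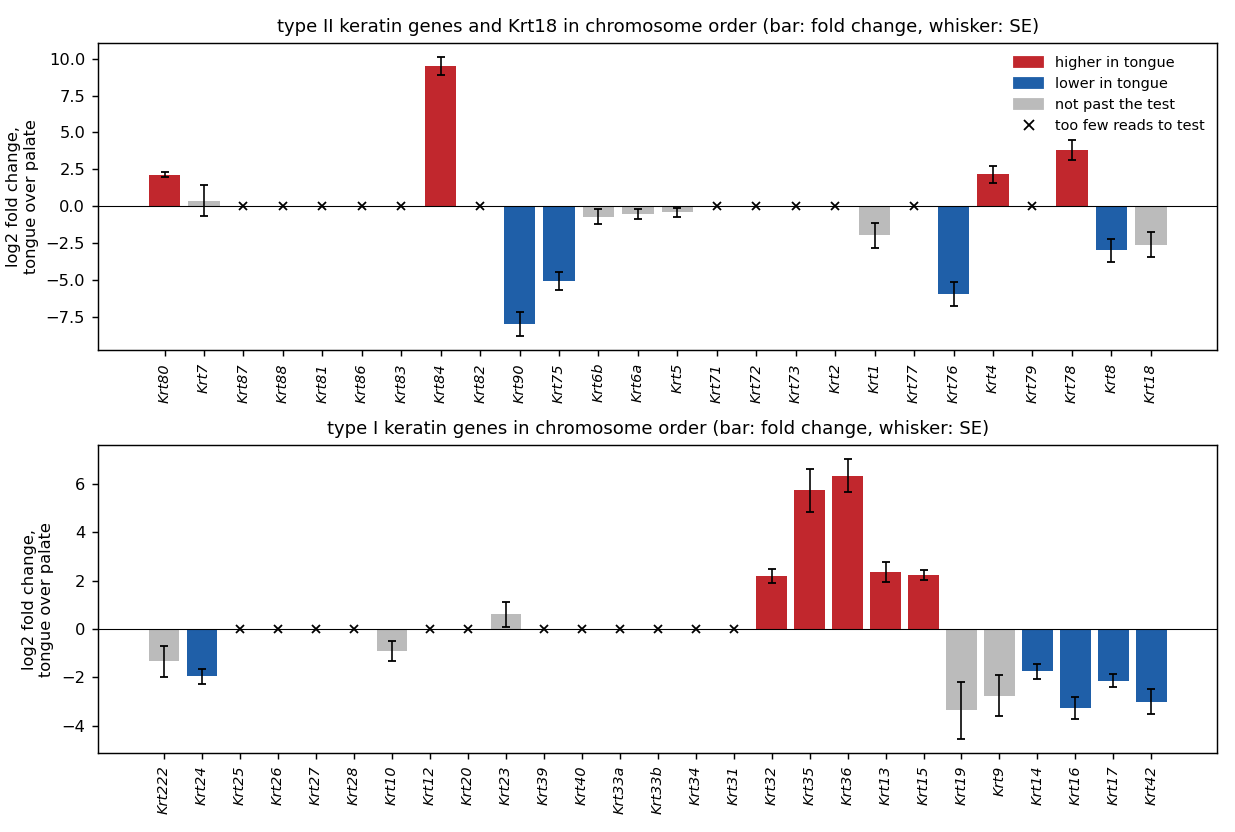
Log2 fold change of tongue over palate with its SE for the keratin genes in their order along chromosome 15 (26 genes) and chromosome 11 (27 genes), with genes too low to test marked. In the first panel Krt84 points up and Krt90 and Krt75 down. In the second a run of Krt32, Krt35, Krt36, Krt13 and Krt15 is higher in tongue, and Krt14, Krt16, Krt17 and Krt42 are lower.

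Genes of differentiating layers were read in these basal libraries too. Of 22 spinous genes, 6 were higher in tongue and none lower (median 0.30), and 4 to 8 and 0 to 2 with 1 library left out. Calml3, a calmodulin-like protein of stratified epithelia, had 409, 623, 334 and 370.1 CPM in tongue, against 199, 116, 167 and 151 CPM in palate (log2 fold change 1.43 ± 0.23, adjusted p = 0.00466). Sbsn, a secreted suprabasal protein, and Dsc1, a desmosomal cadherin, rose by 1.45 ± 0.20 (adjusted p = 0.00232) and 1.84 ± 0.33 (adjusted p = 0.00741), each highest in tongue LRC 2. The others were Krt13, Krt4 and Evpl, and Evpl lost its call without tongue LRC 1, tongue LRC 2, tongue nLRC 1, tongue nLRC 2, palate LRC 1, palate LRC 2 or palate nLRC 1 (adjusted p up to 0.145). Of 21 granular and cornified envelope genes, 5 were higher and 2 lower (median 1.25), and 4 to 8 and 2 with 1 library left out. Tgm1, the transglutaminase that crosslinks the cornified envelope, had 23.8, 44.7, 41.9 and 39.3 CPM in tongue, against 8.12, 5.23, 8.24 and 7.72 CPM in palate (log2 fold change 2.35 ± 0.23, adjusted p = 0.000323). Rptn, Sprr3 and Alox12b, of envelope and lipid barrier, rose by 3.20 ± 0.50 (adjusted p = 0.00399), 4.42 ± 0.79 (adjusted p = 0.00784) and 4.25 ± 0.75 (adjusted p = 0.00753). Asprv1, a protease that cleaves filaggrin, lost its call without tongue LRC 1, tongue LRC 2, tongue nLRC 1, tongue nLRC 2, palate LRC 1, palate LRC 2 or palate nLRC 1 (adjusted p up to 0.14).

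Sprr2a2, a small proline-rich envelope protein, had 6.29, 12.6, 23.2 and 15.004 CPM in tongue, against 50.6, 83.6, 70.2 and 308 CPM in palate (log2 fold change -3.08 ± 0.46, adjusted p = 0.00304). Sprr2a1 overlaps it in the annotation and was also lower (log2 fold change -4.66 ± 0.68, adjusted p = 0.00272), and reads of this pair are uncertain. Tgm7, another transglutaminase, had 0, 0, 0.0837 and 0.0721 CPM in tongue, against 14.2, 33.7, 12.8 and 24.5 CPM in palate, and its 2 tongue reads gave a palate over tongue ratio of 516 (95% counting interval 142 to 4266) (adjusted p = 7.96e-05).

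Of 29 junction genes, 4 were higher, among them Pkp2, Dsc1 and Cldn1, and Dsg2 was lower (median 0.02), and 2 to 6 and 0 to 2 with 1 library left out. Pkp2, a desmosomal plaque protein, rose by 2.38 ± 0.35 (adjusted p = 0.00299). Cldn1 lost its call without tongue LRC 1, tongue LRC 2, tongue nLRC 1, tongue nLRC 2, palate LRC 1 or palate LRC 2 (adjusted p up to 0.106), and Dsg2 without tongue LRC 1, tongue LRC 2, tongue nLRC 1, tongue nLRC 2, palate LRC 2 or palate nLRC 1 (adjusted p up to 0.133). Of 26 basement membrane and hemidesmosome genes, 2 were higher and 1 lower (median -0.12), and 1 to 4 and 1 to 2 with 1 library left out. These counts lie near the shares over all tested genes, 4.70% higher and 4.36% lower. Frem2 and Fras1, which form one complex in the basement membrane, differed in opposite directions. Frem2 had 89.6, 68.6, 128 and 107 CPM in tongue, against 9.58, 25.1, 6.94 and 4.25 CPM in palate (log2 fold change 3.22 ± 0.49, adjusted p = 0.00337). Fras1 had 6.43, 2.73, 6.87 and 6.13 CPM in tongue, against 48.4, 37.7, 32.9 and 15.8 CPM in palate (log2 fold change -2.56 ± 0.38, adjusted p = 0.00278). Neither overlapped between tissues. Lama5, a laminin chain, rose by 0.52 ± 0.14 and lost its call without tongue LRC 1, tongue LRC 2, tongue nLRC 1, tongue nLRC 2, palate LRC 1, palate LRC 2 or palate nLRC 1 (adjusted p up to 0.165).

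Enzymes and secreted or receptor proteins were among the 15 largest rises of the ranking, which took only genes without overlap. Mgst2, a microsomal glutathione transferase, had 22.3, 19.9, 36.4 and 37.8 CPM in tongue, against 1.89, 1.23, 2.9 and 0.772 CPM in palate (log2 fold change 3.97 ± 0.31, adjusted p = 0.000123). Il1r2, the decoy receptor of interleukin 1, had 23.3, 21.4, 11.97 and 12.9 CPM in tongue, against 2.62, 1.31, 1.6 and 0.772 CPM in palate (log2 fold change 3.39 ± 0.27, adjusted p = 0.000123). Neither overlapped between tissues. Pla2g4f, a cytosolic phospholipase, rose by 3.47 ± 0.30 (adjusted p = 0.000193), Rgcc, a regulator of the cell cycle, by 3.25 ± 0.27 (adjusted p = 0.000156) and Ada, adenosine deaminase, by 3.23 ± 0.51 (adjusted p = 0.00415).

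Matrix, transport and membrane genes were among the 15 largest falls of the same ranking. Fn1, fibronectin, had 0.65, 0.744, 0.502 and 0.577 CPM in tongue, against 28.6, 22.4, 29.5 and 39.3 CPM in palate (log2 fold change -5.56 ± 0.25, adjusted p = 7.98e-06). The tongue values all lay below 1 CPM. Of 13 fibroblast markers Lum was at 0 in all 8 libraries, Col1a1 stood at 0 to 0.216 CPM in tongue and 0.129 to 1.15 CPM in palate, and their sum was 75.8 to 189 CPM in tongue and 63.6 to 155 CPM in palate, mostly Dcn. Fbn1, fibrillin 1, was the 1 fibroblast marker of 6 tested that passed, with 0.506, 0.414, 0.0837 and 0 CPM in tongue, against 4.58, 1.08, 0.533 and 1.16 CPM in palate (log2 fold change -3.02 ± 0.74, adjusted p = 0.0333), and it lost its call without tongue LRC 1, tongue LRC 2, tongue nLRC 1, tongue nLRC 2, palate LRC 1 or palate nLRC 1 (adjusted p up to 0.163). Slc38a4, a neutral amino acid transporter, had 0.361, 0.165, 0.167 and 0.505 CPM in tongue, against 19.1, 31.3, 32.7 and 48.3 CPM in palate (log2 fold change -6.68 ± 0.35, adjusted p = 2.02e-05). Pirt, a regulator of TRP channels known from sensory neurons, fell by 5.33 ± 0.38 (adjusted p = 8.48e-05), Iqgap2, a scaffold protein, by 6.68 ± 0.43 (adjusted p = 6.47e-05), and Pdzrn3, a ubiquitin ligase, by 5.86 ± 0.44 (adjusted p = 9.59e-05). Cpa6, a carboxypeptidase of the extracellular matrix, had 0.939, 0.662, 1.76 and 0.938 CPM in tongue, against 37.95, 49.6, 19.2 and 9.27 CPM in palate (log2 fold change -4.56 ± 0.49, adjusted p = 0.000542). Its lowest palate library was nLRC 2, still above all tongue libraries. The mean exon TPM of Cpa6 in palate was only 0.965 ± 0.76 (SD, n = 4). Cpa6 was too low for limma on TPM with the filter, and did not pass without it. Ltf, lactoferrin of gland secretions, had 0, 0, 0.0837 and 0 CPM in tongue, against 152, 4.84, 7.47 and 0.129 CPM in palate, so that palate LRC 1, the library rich in Muc5b, held most of it. Its call (adjusted p = 0.0116) was lost without tongue LRC 1 or tongue LRC 2 (adjusted p up to 0.065).

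Wnt signalling acts through secreted ligands, Frizzled and Lrp receptors and the nuclear Lef and Tcf factors, and patterns papillae and rugae in the mouse embryo. Of 39 tested Wnt genes, 11 were higher in tongue and 7 lower (median 0.22), and 8 to 11 and 5 to 7 with 1 library left out. Among ligands, Wnt7b had 60.7, 67.8, 53.3 and 53.3 CPM in tongue, against 21.3, 14.3, 21.1 and 14.3 CPM in palate (log2 fold change 1.72 ± 0.18, adjusted p = 0.000467). Wnt4 and Wnt16 rose by 1.28 ± 0.13 (adjusted p = 0.000452) and 3.70 ± 0.50 (adjusted p = 0.00189). Wnt5a, which mostly acts without beta-catenin, had 2.02, 5.05, 11.6 and 7.5 CPM in tongue, against 16.8, 24.9, 36.04 and 19.6 CPM in palate (log2 fold change -2.03 ± 0.36, adjusted p = 0.00731). Neither Wnt7b nor Wnt5a overlapped between tissues. Wnt11 fell by 1.25 ± 0.23 (adjusted p = 0.00925), and Wnt7a lost its call without tongue LRC 2, tongue nLRC 1, tongue nLRC 2, palate LRC 1 or palate nLRC 1 (adjusted p up to 0.0941).

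Of receptors, Lrp5 rose by 0.93 ± 0.15 (adjusted p = 0.00475), and Fzd1 and Fzd6 lost their calls without tongue LRC 1, tongue LRC 2, tongue nLRC 1, tongue nLRC 2, palate LRC 1, palate LRC 2 or palate nLRC 1 (adjusted p up to 0.122) and without tongue LRC 1, tongue LRC 2, tongue nLRC 1, tongue nLRC 2, palate LRC 1 or palate LRC 2 (adjusted p up to 0.162). Lef1, a nuclear effector, had 83.2, 60.96, 78.96 and 57.996 CPM in tongue, against 16.4, 22.4, 22.3 and 13.1 CPM in palate (log2 fold change 1.91 ± 0.21, adjusted p = 0.000573). Axin2, a feedback target, had 6.29, 8.35, 18.7 and 13.8 CPM in tongue, against 23.1, 23.8, 42.1 and 35.7 CPM in palate (log2 fold change -1.47 ± 0.18, adjusted p = 0.000952). Lef1 was thus higher and Axin2 lower in tongue, with no overlap in either. Among inhibitors, Dkk3 and Apcdd1 rose by 1.66 ± 0.15 (adjusted p = 0.000231) and 1.95 ± 0.30 (adjusted p = 0.00365), Sfrp1 by 0.81 ± 0.14 (adjusted p = 0.00702), and Nkd2 fell by 1.49 ± 0.28 (adjusted p = 0.00966). Kremen1, a Dkk co-receptor, lost its call without tongue LRC 1, tongue nLRC 2 or palate LRC 2 (adjusted p up to 0.0603). Sostdc1, which also blocks BMP, had 6.14, 7.28, 16.7 and 16.2 CPM in tongue, against 34.9, 50.7, 43.4 and 62.2 CPM in palate (log2 fold change -2.16 ± 0.24, adjusted p = 0.000707).

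BMP ligands signal through Smad proteins to Id target genes and are held back by secreted antagonists. Of 24 tested BMP genes, 3 were higher and 7 lower (median -0.12), and 2 to 3 and 4 to 8 with 1 library left out. The ligand Bmp4 had 20.6, 18.9, 9.63 and 10.9 CPM in tongue, against 6.35, 5.3, 3.85 and 3.48 CPM in palate (log2 fold change 1.62 ± 0.17, adjusted p = 0.000447). Bmp3, a ligand that dampens the pathway, rose by 3.44 ± 0.55 (adjusted p = 0.00452). The target Id3 had 11.7, 10.5, 27.1 and 19.5 CPM in tongue, against 45.9, 55.8, 57.8 and 89.9 CPM in palate (log2 fold change -1.92 ± 0.20, adjusted p = 0.000504). Id1 fell by 1.57 ± 0.21 (adjusted p = 0.00189). In tongue Id3 and Id1 were lower in both LRC than in both nLRC libraries, which was not tested. The antagonist Nog, noggin, had 0.0723, 0, 0.419 and 0.577 CPM in tongue, against 2.93, 4.69, 5.75 and 4.76 CPM in palate (log2 fold change -4.25 ± 0.60, adjusted p = 0.00243). Fst, follistatin, which mainly binds activins, had 3.4, 2.07, 4.69 and 2.38 CPM in tongue, against 17.2, 20.4, 21.8 and 28.96 CPM in palate (log2 fold change -2.81 ± 0.25, adjusted p = 0.000225). Both antagonists were lower in every tongue library than in any palate library. Smad5, Id2, Bmp6 and Bmpr1b lost their calls with some libraries left out, Smad5 without tongue LRC 1, tongue LRC 2, tongue nLRC 1, tongue nLRC 2, palate LRC 1, palate LRC 2 or palate nLRC 1 (adjusted p up to 0.152), Id2 without tongue LRC 1, tongue LRC 2, tongue nLRC 2, palate LRC 1 or palate LRC 2 (adjusted p up to 0.0957), Bmp6 without tongue LRC 1, tongue LRC 2, tongue nLRC 1, tongue nLRC 2, palate LRC 1 or palate nLRC 1 (adjusted p up to 0.156) and Bmpr1b without tongue LRC 1, tongue LRC 2, tongue nLRC 2, palate LRC 2 or palate nLRC 1 (adjusted p up to 0.089).

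Of 17 TGF-beta genes, 1 was higher and 4 lower (median -0.41), and 0 to 1 and 3 to 5 with 1 library left out. Tgfb2, a ligand, had 9.03, 6.7, 10.8 and 6.71 CPM in tongue, against 38.9, 53.7, 47.9 and 31.2 CPM in palate (log2 fold change -2.37 ± 0.23, adjusted p = 0.00036). Inhbb, the activin B subunit, had 3.76, 4.96, 3.1 and 3.61 CPM in tongue, against 17.9, 16.8, 17.1 and 19.95 CPM in palate (log2 fold change -2.22 ± 0.19, adjusted p = 0.000161). Neither overlapped between tissues. Ltbp2, a latent TGF-beta binding protein, fell by 3.64 ± 0.61 (adjusted p = 0.00569). Of 12 hedgehog genes, 3 were higher and 1 lower (median 0.20), the same counts with any 1 library left out. Hhip, a target that binds the ligand, had 5.42, 5.62, 3.18 and 3.25 CPM in tongue, against 0.061, 0.0768, 0.119 and 0 CPM in palate (log2 fold change 5.72 ± 0.52, adjusted p = 0.000227). The targets Gli1 and Ptch1 rose by 2.06 ± 0.35 (adjusted p = 0.0059) and 0.84 ± 0.16 (adjusted p = 0.00992). Gli3, mainly a repressor, had 27.9, 13.98, 28.5 and 29.1 CPM in tongue, against 133, 162, 128 and 68.4 CPM in palate (log2 fold change -2.29 ± 0.31, adjusted p = 0.00195). The ligand Shh had no read in any of the 8 libraries.

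Of 14 genes of the EGF receptor axis, 4 were higher and none lower (median 0.31), and 3 to 5 and 0 with 1 library left out. Lrig1, which lowers EGF receptor signalling and marks stem cells, had 60.3, 62.8, 68.2 and 78.1 CPM in tongue, against 38.7, 21.7, 28.99 and 21.8 CPM in palate (log2 fold change 1.27 ± 0.21, adjusted p = 0.00471). Lrig3, its relative, and the receptor Erbb3 rose by 0.90 ± 0.15 (adjusted p = 0.006) and 0.81 ± 0.14 (adjusted p = 0.0059), and the ligand Tgfa lost its call without tongue LRC 1, tongue nLRC 1, tongue nLRC 2 or palate LRC 2 (adjusted p up to 0.0766). Of 18 FGF genes, 2 were higher and 2 lower, and of 13 Notch genes, 2 were higher and none lower. Among these the receptor Fgfr3 kept its call with each library left out (log2 fold change 0.78 ± 0.13, adjusted p = 0.00616), though not by limma on TPM without a filter. Etv4, Fgfbp1, Spry4, Notch2 and Dll1 each lost it without tongue nLRC 1, among others.

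Retinoic acid is made and cleared inside epithelial cells and steers their differentiation. Of 20 retinoid genes, 4 were higher and 4 lower (median 0.37), and 3 to 4 and 2 to 5 with 1 library left out. Crabp1, which binds retinoic acid in the cytoplasm, had 13.7, 14.97, 14.9 and 9.81 CPM in tongue, against 3.11, 3.07, 2.13 and 3.48 CPM in palate (log2 fold change 2.19 ± 0.22, adjusted p = 0.000422). The reductases Rdh12 and Dhrs3 rose by 1.59 ± 0.17 (adjusted p = 0.000512) and 0.72 ± 0.14 (adjusted p = 0.0118). Of the retinoic acid hydroxylases, Cyp26c1 fell by 4.34 ± 0.66 (adjusted p = 0.00356), and Cyp26b1, which was higher, lost its call without tongue LRC 1, tongue LRC 2, tongue nLRC 1, palate LRC 1 or palate LRC 2 (adjusted p up to 0.0903).

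Of 41 axon guidance genes, 6 were higher and 6 lower (median 0.03), and 1 to 6 and 3 to 9 with 1 library left out. Nrp1, a receptor of semaphorins and VEGF, had 0.289, 0.579, 0.335 and 0.0721 CPM in tongue, against 7.75, 5.3, 7.29 and 9.91 CPM in palate (log2 fold change -4.55 ± 0.47, adjusted p = 0.000446). Epha7, an ephrin receptor, had 1.37, 1.32, 5.02 and 3.53 CPM in tongue, against 17.2, 8.99, 62.7 and 13.4 CPM in palate (log2 fold change -3.21 ± 0.46, adjusted p = 0.00257). All tongue libraries lay below all palate libraries for both. Efnb2, an ephrin, fell by 1.03 ± 0.17 (adjusted p = 0.0059), and Sema3f, a semaphorin, rose by 0.66 ± 0.12 (adjusted p = 0.00718).

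Among cell cycle genes, none of 30 mitosis genes passed edgeR's test (median -0.33), nor limma's on TPM. Mki67, the proliferation marker, had 209, 76.4, 227 and 203 CPM in tongue, against 228, 383, 259.9 and 298 CPM in palate (log2 fold change -0.74 ± 0.32, adjusted p = 0.191). Its low value in tongue was that of LRC 2. Of 31 DNA replication genes, 12 were lower in tongue and none higher (median -0.61). That count was 2 to 13 with 1 library left out, 3 with LRC and nLRC libraries summed per number, and 0 by limma on exon TPM. Lig1, the replicative DNA ligase, had 29.6, 32.1, 26.3 and 32.03 CPM in tongue, against 56.6, 48.6, 58.3 and 62.8 CPM in palate (log2 fold change -0.91 ± 0.13, adjusted p = 0.00299). Mcm2, a subunit of the replicative helicase, fell by 0.91 ± 0.16 (adjusted p = 0.00676), and both kept their calls with each library left out by edgeR. Cdkn1a, which encodes the CDK inhibitor p21, had 26.5, 46.3, 30.5 and 30.4 CPM in tongue, against 13.4, 9.99, 9.9 and 7.08 CPM in palate (log2 fold change 1.73 ± 0.21, adjusted p = 0.00107). Cdkn2a, of p16 and p19ARF, fell by 2.99 ± 0.51 (adjusted p = 0.0059), but did not pass limma on TPM in any of 3 settings.

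Of 13 mitochondrially encoded genes, 8 were lower in tongue (median -0.66), 2 to 10 with 1 library left out and 0 by limma on exon TPM. The complex I subunit mt-Nd6 had 133, 125, 158 and 162 CPM in tongue, against 270.2, 231, 322 and 296 CPM in palate (log2 fold change -0.95 ± 0.13, adjusted p = 0.0022). None of 25 nuclear genes of oxidative phosphorylation and none of 24 ribosomal protein genes passed edgeR's test or limma's (medians -0.29 and -0.36). Of 25 cholesterol synthesis genes, 5 were lower and none higher (median -0.27), and 3 to 8 and 0 to 1 with 1 library left out. Pmvk, phosphomevalonate kinase, had 6, 7.69, 3.85 and 5.12 CPM in tongue, against 25.02, 31.6, 32.1 and 53.6 CPM in palate (log2 fold change -2.63 ± 0.29, adjusted p = 0.000643). Fdft1, squalene synthase, fell by 1.11 ± 0.18 (adjusted p = 0.00569).

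Of 25 fatty acid and barrier lipid genes, 5 were higher and 1 lower (median 0.20), and 4 to 5 and 1 to 4 with 1 library left out. Elovl4, which makes very long chain fatty acids, had 7.3, 15.1, 5.44 and 6.28 CPM in tongue, against 0.976, 1.92, 0.415 and 0.644 CPM in palate (log2 fold change 3.19 ± 0.36, adjusted p = 0.000724). Sptlc3, of ceramide synthesis, and the desaturase Fads2 rose by 3.73 ± 0.54 (adjusted p = 0.00261) and 1.53 ± 0.15 (adjusted p = 0.000362), and the desaturase Scd1 fell by 2.42 ± 0.25 (adjusted p = 0.000422). Of 25 NRF2 and xenobiotic genes, 1 was higher and 3 lower. Slc7a11, the cystine importer, had 0.65, 0.993, 2.68 and 2.67 CPM in tongue, against 14.1, 7.07, 36.3 and 19.4 CPM in palate (log2 fold change -3.51 ± 0.32, adjusted p = 0.000225). Aldh3a1, an aldehyde dehydrogenase, rose by 1.89 ± 0.31 (adjusted p = 0.00505).

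Of 18 antimicrobial and alarmin genes, 3 were higher and 7 lower (median -1.81), and 1 to 4 and 4 to 8 with 1 library left out. Lcn2, a siderophore binder, had 0.145, 0, 0.0837 and 0.0721 CPM in tongue, against 2.38, 3.69, 1.3 and 10.04 CPM in palate (log2 fold change -5.60 ± 0.87, adjusted p = 0.00385). S100a9, a subunit of calprotectin, had 0, 0, 0.0837 and 0.144 CPM in tongue, against 0.427, 4.84, 1.24 and 16.5 CPM in palate, and its 3 tongue reads gave a palate over tongue ratio of 69.9 (95% counting interval 23.6 to 341) (adjusted p = 0.0121). Both were highest in palate nLRC 2. The leukocyte marker Ptprc stood at 0 to 0.419 CPM in tongue and 0.0768 to 1.46 CPM in palate. Duox1, which makes hydrogen peroxide, rose by 0.88 ± 0.14 (adjusted p = 0.00452). Of 18 interferon genes Ifit2 fell by 4.07 ± 0.42 (adjusted p = 0.000467) and Usp18, which was higher, lost its call without tongue LRC 1 or tongue nLRC 2 (adjusted p up to 0.0584). The other 16 interferon genes did not pass, and over all tested genes 9.06% passed. None of 17 MHC and antigen processing genes passed edgeR's test, against 1 by limma.

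In the remaining lists, 2 of 24 glycolysis and hypoxia genes and 3 of 19 clock genes were higher and none lower, and 1 of 23 immediate early and stress genes was higher and 3 were lower. Over all tested genes, 4.70% were higher and 4.36% lower, and these few calls do not set the lists apart. Egln3, an oxygen sensor, Npas2, a clock factor, and Fosl2, an AP-1 subunit, kept their calls with each library left out, with rises of 1.34 ± 0.24 (adjusted p = 0.00836), 1.56 ± 0.32 (adjusted p = 0.0157) and 0.78 ± 0.12 (adjusted p = 0.00392). Fosl2 did not pass limma on TPM in any of 3 settings, and Npas2 did not in 1 of them.

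**Figure D5:**
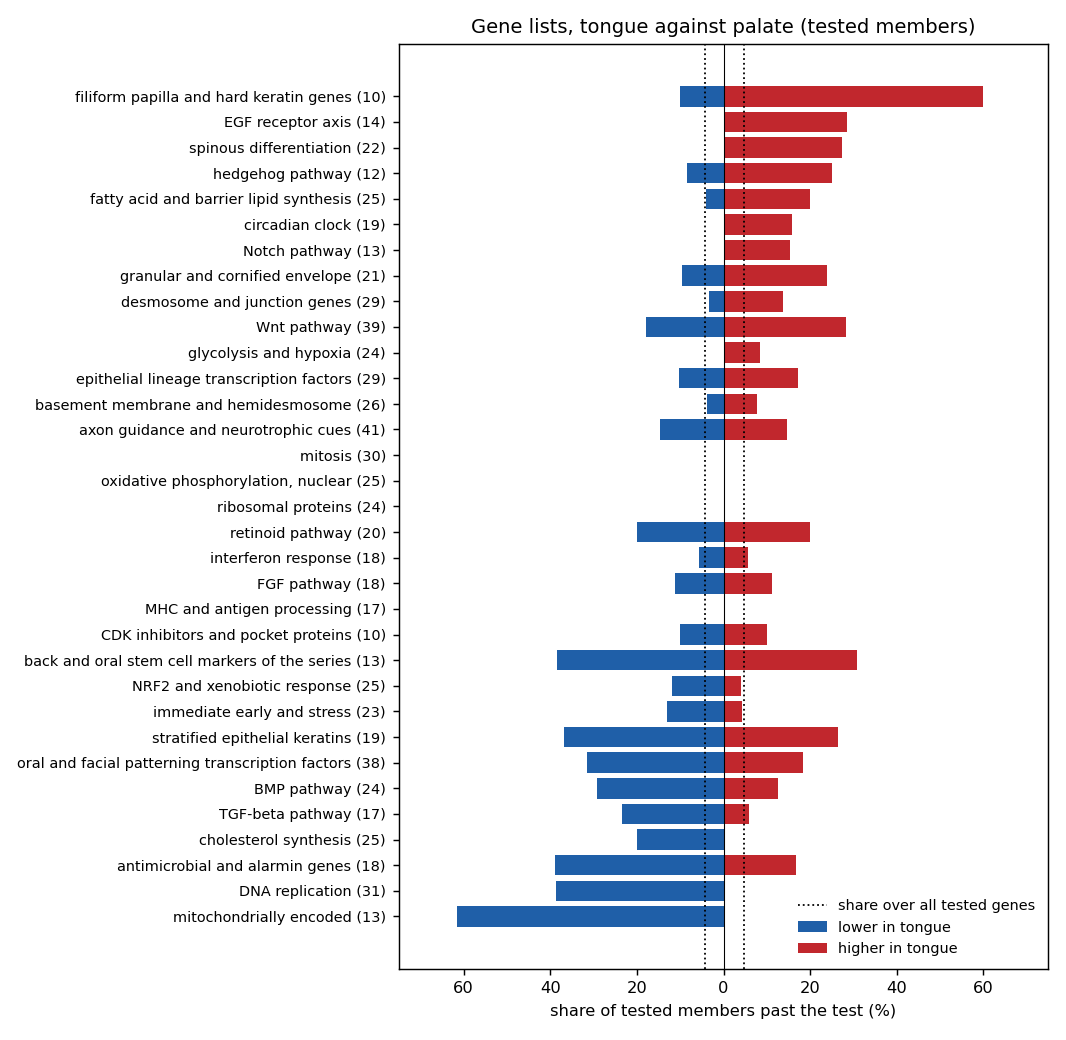
Share of the tested members of each list that passed the test, lower in tongue in blue and higher in tongue in red. Dotted lines mark the shares over all 14923 tested genes, 4.36% lower and 4.70% higher. Hard keratin and filiform papilla genes were higher in 6 of 10, mitochondrially encoded genes lower in 8 of 13 and DNA replication genes lower in 12 of 31.

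A list of back skin and oral stem cell markers was drawn up for this series. Of its 13 tested members, 4 were higher in tongue (Krt15, Lrig1, Igfbp5 and Gli1) and 5 lower (Slc1a3, Dlx1, Igfbp3, Bmi1 and Lgr6). Slc1a3, a glutamate transporter, had 20.9, 11.001, 26.3 and 23.4 CPM in tongue, against 50.03, 78.5, 77.2 and 89.6 CPM in palate (log2 fold change -1.87 ± 0.22, adjusted p = 0.00092). Igfbp5, an IGF binding protein, had 193, 199, 97.8 and 93.1 CPM in tongue, against 39.4, 33.3, 68.2 and 35.7 CPM in palate (log2 fold change 1.65 ± 0.33, adjusted p = 0.0136), and lost its call without palate LRC 1 or palate LRC 2 (adjusted p up to 0.0607). Igfbp3, of the same family, had 87.7, 81.5, 28.5 and 22.3 CPM in tongue, against 147, 184, 106 and 165 CPM in palate (log2 fold change -1.68 ± 0.30, adjusted p = 0.00832). In both, the tongue LRC libraries lay above the tongue nLRC libraries, which was not tested. Lgr6, an R-spondin receptor, had 1.59, 1.82, 27.97 and 16.2 CPM in tongue, against 29.4, 19.4, 58.3 and 30.6 CPM in palate (log2 fold change -2.22 ± 0.55, adjusted p = 0.0328). It was lowest in both tongue LRC libraries, its groups overlapped, and it lost its call without tongue LRC 1, tongue LRC 2, tongue nLRC 2, palate LRC 2 or palate nLRC 1 (adjusted p up to 0.121). Bmi1 lost its call without tongue nLRC 1, tongue nLRC 2 or palate LRC 2 (adjusted p up to 0.0641), and did not pass limma on TPM.

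Markers of other cell types were low or mixed. The summed level of 20 taste bud markers was 48.3 to 96.5 CPM in tongue and 37.3 to 99.6 CPM in palate, mostly Kcnq1, with Trpm5, the taste cell channel, at 0 to 0.251 CPM in tongue and 0 to 0.237 CPM in palate. Entpd2, an ectonucleotidase of taste buds, had 8.53, 10.7, 6.7 and 7.65 CPM in tongue, against 1.89, 3.23, 4.09 and 5.28 CPM in palate (log2 fold change 1.26 ± 0.32, adjusted p = 0.0352), and lost its call without tongue LRC 1, tongue LRC 2, tongue nLRC 2, palate LRC 1, palate LRC 2 or palate nLRC 1 (adjusted p up to 0.112). The summed level of the salivary gland markers was 139 to 179 CPM in tongue and 88.3 to 552 CPM in palate, mostly Slc12a2 outside palate LRC 1. Palate nLRC 1 also held gland reads, with Dcpp1, Dcpp2 and Dcpp3 at 11.7, 17.4 and 10.8 CPM. Every other library had 0 to 0.976 CPM of each. Pip was at 0 in all 8 libraries. Krt8, a keratin of simple epithelia, had 1.3, 1.74, 0.67 and 0.361 CPM in tongue, against 21.97, 0.845, 5.1 and 3.35 CPM in palate (log2 fold change -2.97 ± 0.79, adjusted p = 0.0449), and lost its call without tongue LRC 1, tongue LRC 2, tongue nLRC 1, tongue nLRC 2, palate LRC 1 or palate nLRC 1 (adjusted p up to 0.28). Krt18 and Krt19, of the same tissues, did not pass (log2 fold change -2.61 ± 0.85, adjusted p = 0.0936 and log2 fold change -3.36 ± 1.18, adjusted p = 0.116), and all 3 were highest in palate LRC 1. The myosin Myh1 had 0, 0, 0.0837 and 0 CPM in tongue, against 2.38, 6.38, 2.67 and 6.95 CPM in palate, a palate over tongue ratio of 212 (95% counting interval 37.6 to 8394) (adjusted p = 0.000797), and Myh2 had 0, 0, 0.0837 and 0 CPM in tongue, against 1.16, 1.92, 2.43 and 1.03 CPM in palate, a ratio of 89.03 (95% counting interval 15.6 to 3554) (adjusted p = 0.00343). Each had 1 tongue read, and the other 3 of 5 tested muscle markers did not pass. The muscle actin Acta1 stood at 0 to 0.217 CPM in tongue and 0 to 0.119 CPM in palate. The sum of 12 respiratory markers was 279 to 529.5 CPM in tongue and 95.6 to 644 CPM in palate, mostly Cyp2f2 and Tppp3. Cyp2f2 stood at 127 to 393 CPM in tongue and 54.5 to 395 CPM in palate and did not pass. Foxj1, Bpifa1, Muc5ac and Reg3g had no read in tongue. Tppp3 passed and rose by 1.58 ± 0.19 (adjusted p = 0.000952). Of the Schwann, Langerhans and Merkel cell lists, Mbp, Epcam, Mfge8 and Piezo2 passed as higher in tongue, and Mfge8 and Piezo2 lost their calls with some libraries left out. In sorted populations, fewer cells of a type and less RNA per cell cannot be told apart.

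Within LRC, 614 genes differed between tongue and palate (4.11%), 254 higher (1.70%) and 360 lower in tongue (2.41%), and within nLRC 491 (3.29%), 258 higher (1.73%) and 233 lower (1.56%) (edgeR, 2 libraries against 2 with the spread of all 8). In both classes 301 genes passed, all in the same direction, which is 49.0% of the LRC genes and 61.3% of the nLRC genes. The LRC count was 226 without tongue LRC 2 and 1101 without palate nLRC 1, and the nLRC count 111 without tongue nLRC 2 and 3378 without palate nLRC 1. No gene passed edgeR's test of the difference between the classes (854 at an unadjusted p under 0.05, smallest adjusted p = 0.550), against 32 by DESeq2 and 488 without palate nLRC 1. Npnt, nephronectin, a ligand of integrins, had 8.38, 5.87, 21.8 and 22.9 CPM in tongue, against 89.5, 109, 94.6 and 85.2 CPM in palate (log2 fold change -2.87 ± 0.35, adjusted p = 0.000952). Adgra3, an adhesion receptor, had 5.56, 5.46, 26.7 and 16.1 CPM in tongue, against 44.6, 56.8, 36.8 and 33.98 CPM in palate (log2 fold change -1.91 ± 0.46, adjusted p = 0.0314), and lost its call without tongue LRC 1, tongue LRC 2, tongue nLRC 2, palate LRC 1 or palate LRC 2 (adjusted p up to 0.135). For both genes the tongue LRC libraries lay below the tongue nLRC libraries, which was not tested.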

How the data were processed

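The authors deposited 1 table per library with total gene read counts, which hold exon and intron reads, and with TPM and RPKM, which hold exon reads. Per the labels' protocols, tissue was digested with trypsin, sorted cells were collected in Trizol, and a SMARTer stranded total RNA kit was used. Per the submitters' processing notes the genome build was mm10. The aligner, the counter and the strand setting were not given in the sources used here. RPKM values as deposited by the authors were not used. Gene positions come from GENCODE vM21, in which 47102 of 49585 names matched.

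Counts were tested with edgeR 4.0.16 in R 4.3.3 (quasi-likelihood test, TMM scaling, filterByExpr with a minimum count of 10 and a total of 15) with label class and tissue as factors, Benjamini-Hochberg adjusted over all genes at 0.05. Standard errors are the log2 fold change over the root of F. The 4 group means gave the tests within LRC, within nLRC and of their difference. DESeq2 1.42.0 and limma 3.58.1 on log2(TPM + 1) of genes with a mean TPM of at least 1 were alternatives, next to RLE scaling, no filter, a pseudocount of 0.1, a replicate block, no label class term, tail skin libraries added, 4 ribosomal RNA-like features left out, LRC and nLRC summed, and each library left out. On simulated counts for the tongue and palate comparison (14570 genes), the test recovered 100% of changes of 2 and 74% of changes of 1 on the log2 scale, with 2 false calls. The simulated libraries were independent, with a spread smoothed over genes of like level and no outlying library. Changes were planted only in better expressed genes. On the real libraries the test may thus recover less and make more false calls. Intervals (95%) and the floor of 3 reads cover counting error only.

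The naming rule took the 15 largest rises and 15 largest falls among genes that passed without overlap (average log2 CPM 3 or more), the 4 members of each list with the lowest p, patterning factors, Hox genes, keratins and markers. Further list members, and Tbx2, Adgra3, Npnt, Eya2, Eya3 and Krt42, were named after their values were seen. A few genes chosen by the rule are not reported here. The libraries compared and the lists were chosen with earlier results of these data known.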

Additional observations from a re-analysis of the deposited data

Results flagged for a closer look

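By Dixon's test at 95%, 36 of 335 groups of 4 values of named genes, each reaching 1 CPM, held 1 library far from the other 3, and chance gives about 1 in 20 groups. 7 values of whole libraries or marker sums did so too. No cause was tested for any of them.

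In tongue LRC 2, the median intron share per gene was 19.5%, against 26.4 to 26.98% in the other tongue libraries. In tongue LRC 2, the summed level of taste bud markers was 48.3 CPM, against 91.8 to 96.5 CPM in the other tongue libraries. In tongue nLRC 1, the summed level of leukocyte markers was 2.43 CPM, against 1.81 to 1.88 CPM in the other tongue libraries. In palate nLRC 2, the share of reads on ribosomal RNA-like features was 19.8%, against 9.39 to 10.99% in the other palate libraries. In palate nLRC 2, the summed level of basal epithelium markers was 33982 CPM, against 20022 to 20642 CPM in the other palate libraries. Most of it was Krt14 and Krt5, at 19761 and 9529 CPM. Of the palate libraries it was also highest for Itgb4, but lowest for Trp63, Itga6 and Krt15, at 570.3, 510 and 356 CPM. In palate LRC 1, the summed level of junctional epithelium markers was 29.7 CPM, against 2.06 to 4.21 CPM in the other palate libraries. Most of it was Krt19, a keratin also of simple epithelia, at 23.9 CPM, while Odam and Amtn stood at 0.122 and 0 CPM. In palate LRC 1, the summed level of leukocyte markers was 21.9 CPM, against 1.01 to 1.42 CPM in the other palate libraries. Most of it was Lyz2 at 18.7 CPM, with Ptprc at 1.46 CPM.

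Tongue LRC 1 stood apart for Dkk3 at 149 CPM (other tongue libraries 91.8 to 100.2) and Rdh12 at 16.7 CPM (other tongue libraries 22.6 to 23.3). Tongue LRC 2 stood apart for Krt13 at 8795 CPM (other tongue libraries 5172 to 5609), Alox12b at 9.35 CPM (other tongue libraries 2.24 to 3.25) and Sbsn at 106 CPM (other tongue libraries 57.2 to 58.8). Beside these, tongue LRC 2 did so for Dsc1 at 16.3 CPM (other tongue libraries 6.85 to 8.21), Gli3 at 13.98 CPM (other tongue libraries 27.9 to 29.1) and Mki67 at 76.4 CPM (other tongue libraries 203 to 227). Beside these, tongue LRC 2 did so for Kcnq1 at 28.2 CPM (other tongue libraries 73.7 to 78.99). Tongue nLRC 1 stood apart for Tgfa at 30.1 CPM (other tongue libraries 27.03 to 27.3). Tongue nLRC 2 stood apart for Gli1 at 7.65 CPM (other tongue libraries 5.87 to 6.03). Palate LRC 1 stood apart for Ltf at 152 CPM (other palate libraries 0.129 to 7.47), Six2 at 5.74 CPM (other palate libraries 0.644 to 1.13) and Krt78 at 2.62 CPM (other palate libraries 0.0768 to 0.296). Beside these, palate LRC 1 did so for Krt18 at 15.3 CPM (other palate libraries 0.845 to 2.7), Krt19 at 23.9 CPM (other palate libraries 0.644 to 2.13) and Muc5b at 233 CPM (other palate libraries 0 to 2.55). Beside these, palate LRC 1 did so for Fbn1 at 4.58 CPM (other palate libraries 0.533 to 1.16), Muc5ac at 137 CPM (other palate libraries 0 to 13.2) and Reg3g at 32.3 CPM (other palate libraries 0 to 1.6). Palate LRC 2 stood apart for Tbx3 at 1.38 CPM (other palate libraries 0.356 to 0.515), Tfap2b at 113 CPM (other palate libraries 48.1 to 54.6) and Krt10 at 60.1 CPM (other palate libraries 14.4 to 20.04). Beside these, palate LRC 2 did so for Mcm2 at 36.96 CPM (other palate libraries 44.8 to 45.5). Palate nLRC 1 stood apart for Epha7 at 62.7 CPM (other palate libraries 8.99 to 17.2). Palate nLRC 2 stood apart for Sprr2a1 at 42.996 CPM (other palate libraries 12.3 to 14.5), Krt14 at 19761 CPM (other palate libraries 9213 to 10468) and Krt5 at 9529 CPM (other palate libraries 5296 to 5961). Beside these, palate nLRC 2 did so for Sprr2a2 at 308 CPM (other palate libraries 50.6 to 83.6), Rptn at 2.32 CPM (other palate libraries 0.922 to 1.1) and Ltbp2 at 10.8 CPM (other palate libraries 5.76 to 6.47). Beside these, palate nLRC 2 did so for Lrig3 at 89.5 CPM (other palate libraries 112 to 117), Fgfbp1 at 97.3 CPM (other palate libraries 46.2 to 52.4) and Kcnq1 at 20.9 CPM (other palate libraries 66.3 to 69.8). Beside these, palate nLRC 2 did so for Tfap2c at 92.8 CPM (other palate libraries 72.7 to 75.5) and Mbp at 25.1 CPM (other palate libraries 42.3 to 45.6).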

How the results depend on the processing

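Between tongue and palate, 1352 genes passed, and no named gene that passed changed direction under any alternative run. With 1 library left out it was 720 to 1772 genes, 360 to 912 higher and 347 to 860 lower in tongue. Without the filter on low counts it was 2323 genes (1152 higher and 1171 lower in tongue), and by DESeq2 1977 genes (987 higher and 990 lower in tongue). By limma it was 559 genes (369 higher and 190 lower in tongue) on log2(TPM + 1), 505 genes (334 higher and 171 lower in tongue) on log2(TPM + 0.1) and 383 genes (235 higher and 148 lower in tongue) without a filter. Of the 1352 genes, 488 also passed on log2(TPM + 1), and with LRC and nLRC libraries of a number summed, 993 did. The median over all genes moved to -0.12 by DESeq2, 0.15 on log2(TPM + 1) and 0.18 on log2(TPM + 0.1). Within LRC the count was 1423 without the filter, 938 by DESeq2 and 226 to 1101 with 1 library left out, and within nLRC it was 1498, 1014 and 111 to 3378. For the difference between the classes it was 237 without the filter, 32 by DESeq2 and 0 to 488 with 1 library left out. The cause of these shifts was not tested. Where a class was left with 1 library, that library was taken to vary like the others. With the replicate number as a block, 1375 genes passed between tissues, of which 1260 were among those 1352, 830 within LRC, 788 within nLRC and 5 for the difference. The libraries were not taken as pairs, since the labels give the numbers no meaning. Differences of replicate 1 from replicate 2 correlated between LRC and nLRC at 0.047 in tongue and 0.283 in palate. Across tissues they correlated at -0.057 to 0.254, which does not bear on shared animals within a tissue. Y-linked levels were alike within a tissue's number. LRC and nLRC of one number may thus share animals, and the main test would then treat parts of the same animals as independent. Of 171 named genes that passed, 76 did so under all 19 alternatives and 6 more under all that tested them, 40 were lost without some library and 1 without palate nLRC 2. Among those lost in all 3 limma settings on TPM were Maf, Krt75, Epha7, Efnb2, Sema3f, Lrig3, Ptch1, Nkd2, Sfrp1, Cdkn2a, Lig1, Mcm2, mt-Nd6 and Fosl2. Genes with few reads in one tissue are limited by depth.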
